A study of Mus musculus with 12 samples.

Results

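The 42 genes described here encode the enzymes and carriers of 3 routes of carbohydrate metabolism, measured in mouse forelimb buds. They were chosen by symbol from a fixed list: 20 for glycolysis with glucose uptake and lactate export, 7 for the pentose phosphate route and 15 for pyruvate dehydrogenase and the tricarboxylic acid (TCA) cycle. The 42 symbols matched 43 of the 53465 genes in the files. Aldoa matched 2 rows, and the row with 387151 counts over all libraries was used, not the one with 921. All 42 were tested, and the lowest count of a member in any library was 10 (Eno2). They took 1.17% to 2.42% of a library's counts.

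Total RNA of forelimb buds from Swiss albino embryos was sequenced in 4 groups of 3, each replicate being the paired forelimb buds of an embryo. The Tbx3 series, at E9.75 to E10 (28 to 31 somites; E counts embryonic days), compared wild-type buds with buds labelled Tbx3-deficient (Tbx3ΔVenus/ΔVenus). In that allele a Venus reporter with a transcription stop and polyadenylation signal sits at the Tbx3 start codon. The Hand2 series, at E10 to E10.25 (31 to 33 somites), compared Prrx1-Cre;Hand2+/+ with Prrx1-Cre;Hand2Δ/Δc buds. Its wild types also carried the Cre transgene, whose Prrx1 promoter is active in limb mesenchyme. In the deficient buds the conditional Hand2 copy (Δc) is thus lost there and not in other cells of the bud. By this notation the other copy (Δ) is deleted in every cell, whereas the wild types have both copies. The 2 series differed in stage, alleles and sequencing depth together, which cannot be told apart in a comparison between them.

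Glycolysis splits glucose into pyruvate in the cytosol, and lactate dehydrogenase and monocarboxylate carriers dispose of pyruvate as lactate. The pentose phosphate route branches off at glucose-6-phosphate and makes NADPH and ribose. Pyruvate that enters the mitochondrion is turned into acetyl-CoA by pyruvate dehydrogenase and oxidised in the TCA cycle. Embryonic tissues at these stages are known to rely heavily on glycolysis. Many glycolysis genes, but few of the other routes, are textbook targets of the hypoxia-inducible factors (HIF), which bind DNA at words that hold ACGTG or GCGTG.

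For genes that did and did not rise, the 250 bases before the RefSeq start are printed for 6 members (build GRCm38.p6, 5′ to 3′ on the gene's strand). By the GENCODE M21 gene bounds, the windows of Ldha and Slc16a3 lay inside the gene and those of Tpi1 and Pfkp in part. These 4 windows may thus hold transcribed bases. Capitals mark the words ACGTG and GCGTG on either strand (CACGT and CACGC when read on the other). ACGTG overlaps the E-box CACGTG, which other factors bind. Pfkp and Slc16a3 had large rises in the buds labelled Tbx3-deficient, Ldha and Ldhb encode the alternative subunits of 1 enzyme, and Tpi1 rose with neither word. Cs is a TCA member that also holds neither, while 9 of 14 TCA promoters hold 1 or both.
Ldha (chr7:46845554-46845803, plus strand): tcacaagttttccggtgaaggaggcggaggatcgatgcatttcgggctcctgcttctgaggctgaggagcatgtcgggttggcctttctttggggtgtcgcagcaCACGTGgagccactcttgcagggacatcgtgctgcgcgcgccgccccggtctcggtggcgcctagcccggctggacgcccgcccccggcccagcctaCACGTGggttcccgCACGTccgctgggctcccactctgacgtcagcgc
Slc16a3 (chr11:120948817-120949066, plus strand): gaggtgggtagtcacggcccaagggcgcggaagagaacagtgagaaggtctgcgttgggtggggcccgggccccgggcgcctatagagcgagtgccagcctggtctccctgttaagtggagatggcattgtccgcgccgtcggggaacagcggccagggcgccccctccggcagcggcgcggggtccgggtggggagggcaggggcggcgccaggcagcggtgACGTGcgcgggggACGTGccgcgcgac
Pfkp (chr13:6648772-6649021, minus strand): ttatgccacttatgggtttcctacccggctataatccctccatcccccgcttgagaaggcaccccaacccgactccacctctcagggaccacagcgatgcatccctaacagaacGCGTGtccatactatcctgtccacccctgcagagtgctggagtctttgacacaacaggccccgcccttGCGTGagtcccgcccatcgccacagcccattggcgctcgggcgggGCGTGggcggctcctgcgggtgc
Tpi1 (chr6:124814159-124814408, minus strand): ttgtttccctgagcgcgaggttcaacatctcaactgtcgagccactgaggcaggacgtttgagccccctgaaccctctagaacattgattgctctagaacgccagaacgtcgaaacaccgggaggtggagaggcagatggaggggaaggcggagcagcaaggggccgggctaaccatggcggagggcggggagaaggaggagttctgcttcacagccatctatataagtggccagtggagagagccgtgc
Ldhb (chr6:142507958-142508207, minus strand): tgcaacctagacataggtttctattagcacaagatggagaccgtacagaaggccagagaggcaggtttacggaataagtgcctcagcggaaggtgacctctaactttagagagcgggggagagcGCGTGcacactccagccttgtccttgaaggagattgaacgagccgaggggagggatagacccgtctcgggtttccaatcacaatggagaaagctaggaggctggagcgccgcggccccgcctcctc
Cs (chr10:128337477-128337726, plus strand): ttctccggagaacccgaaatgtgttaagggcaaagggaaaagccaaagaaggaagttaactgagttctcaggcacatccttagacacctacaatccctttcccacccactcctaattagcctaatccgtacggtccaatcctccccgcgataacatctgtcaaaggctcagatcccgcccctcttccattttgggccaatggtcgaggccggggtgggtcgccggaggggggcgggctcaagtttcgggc
Ldha held 5 matches of ACGTG in this window, counted on both strands, so that each CACGTG counts as 2. Slc16a3 held 2 of ACGTG and Pfkp 3 of GCGTG, and neither window has a CACGTG. Ldhb held 1 match of GCGTG, and Tpi1 and Cs held neither word. Of the 42 members, 41 had a promoter in the RefSeq table, Idh3a not among them. Over the 250 bases, ACGTG was present in 8 of 20 glycolysis promoters (40.0%), 0 of 7 pentose phosphate promoters and 4 of 14 TCA promoters (28.6%), against 16.6% of all 27025 promoters and 21.8% of those of genes tested in the Tbx3 series. Over the table's whole 300 bases, which run 50 bases past the start, the numbers were 10 of 20 (50.0%), 1 of 7 (14.3%), 4 of 14 (28.6%), 19.7% and 25.6%. Among the 13 glycolysis members that rose in the buds labelled Tbx3-deficient, 5 held ACGTG in the 250 bases (38.5%), and among the 7 that were not called 3 did (42.9%). Over 300 bases the order was the other way round, 7 of 13 (53.8%) against 3 of 7 (42.9%), and with either word it was 10 of 13 (76.9%) against 4 of 7 (57.1%) in both windows. With either word in the 250 bases the shares were 70.0% for glycolysis, 85.7% for pentose phosphate and 64.3% for TCA, against 56.9% for tested genes. These matches describe letters in a window, and no binding was measured.

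Counts per library were 23.3 to 31.8 M (1e6) in the Tbx3 series and 60.2 to 68.6 M in the Hand2 series, and Hand2-deficient replicate 1 had 5.37% of its counts on 1 gene like ribosomal RNA. Hand2 was at 120, 120 and 126 CPM (counts scaled to 1e6 per library) in its wild types and at 0.187, 2.21 and 0.384 CPM in the Hand2-deficient libraries. Tbx3 was at 78.0, 77.3 and 79.3 CPM in wild types and at 80.6, 79.3 and 73.3 CPM in the libraries labelled Tbx3-deficient. Its count thus does not check the label. Why it did not fall with an allele that has a transcription stop at the start codon was not tested. From Xist and Y-linked genes, the 3 wild types of the Tbx3 series were female, the libraries labelled Tbx3-deficient replicates 1 and 2 male and replicate 3 female. The Hand2 wild types were 2 females and 1 male and the deficient ones 1 female and 2 males. Markers of forelimb mesenchyme were present in all libraries, at a summed 1830 to 2850 CPM. In bulk RNA, fewer cells of a type and less RNA per cell cannot be told apart.

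The Tbx3 comparison asks which genes change in buds labelled Tbx3-deficient. Glycolysis members rose: 13 of 20 were called higher and 0 lower, with a median log2 fold change of 0.72 (range -0.02 to 1.73). Here called means that edgeR's quasi-likelihood test, adjusted over all 15130 genes tested, gave an adjusted p under 0.05, and of these genes 0.727% were called higher and 0.284% lower. None of the 7 pentose phosphate members (median -0.01, range -0.18 to 0.12) and none of the 15 TCA members (median -0.01, range -0.17 to 0.09) was called, and the median of all genes was -0.003. In 17 of 20 glycolysis members all 3 libraries labelled Tbx3-deficient lay above all 3 wild types, against 10.7% of all genes tested and 2 of 7 and 1 of 15 in the other routes. Summed over the 20 members, glycolysis RNA was at 12567, 13820 and 12576 CPM in the wild types and at 17021, 20664 and 21424 CPM in the libraries labelled Tbx3-deficient. The TCA sum was 2202, 2186 and 2132 CPM against 2126, 2108 and 2233 CPM, and the groups overlapped.

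**Figure D1:**
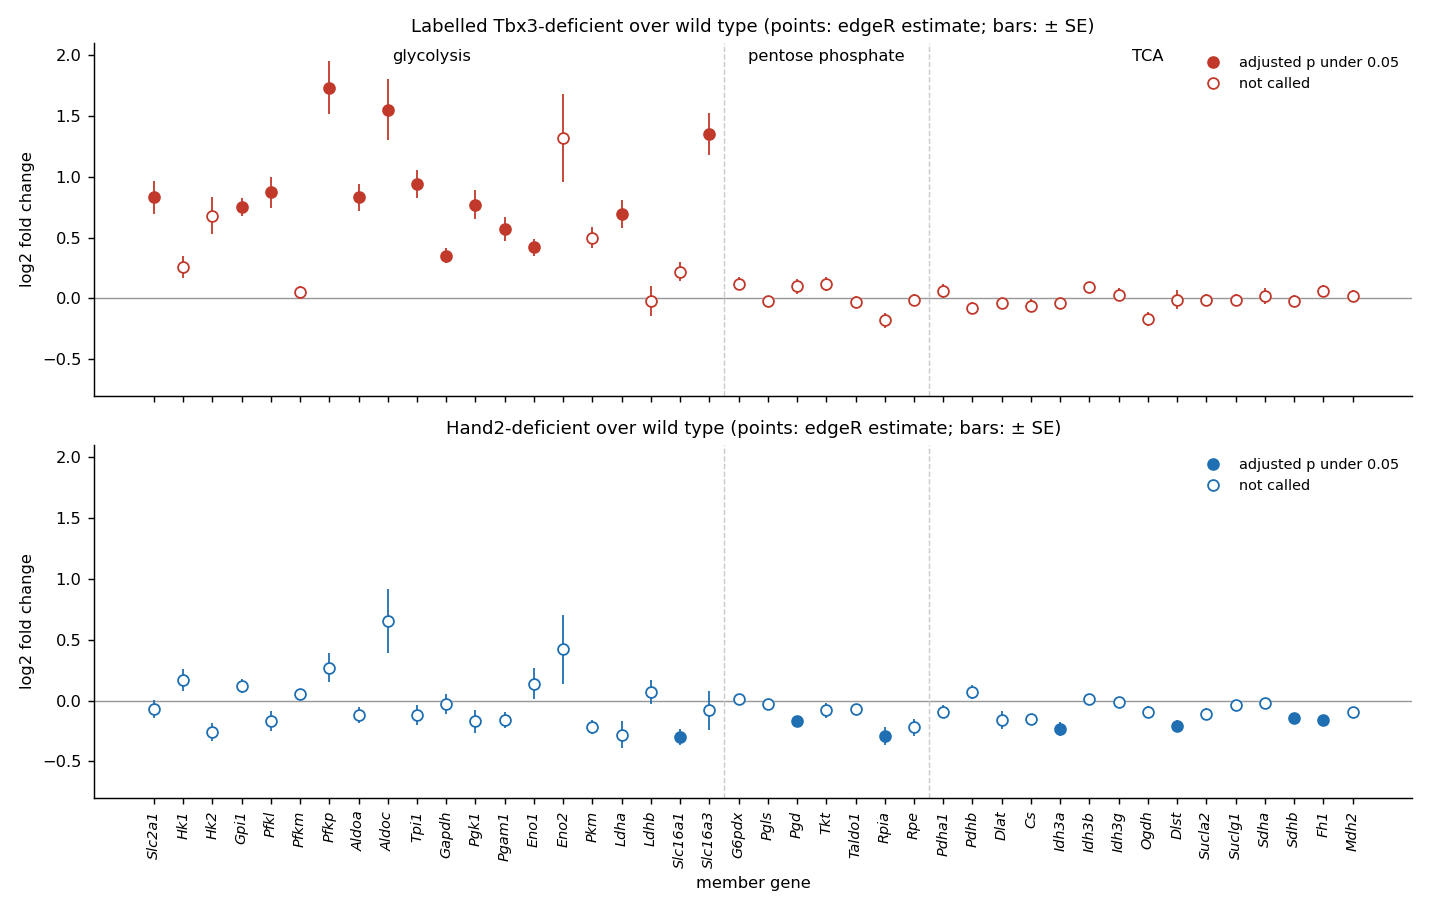
Log2 fold change (y axis, ± SE) of each of the 42 members (x axis, ordered by route) in the Tbx3 series (top) and the Hand2 series (bottom), each from 3 deficient and 3 wild-type libraries; filled points have an adjusted p under 0.05. In the top panel 13 glycolysis members are filled and none of the other routes; in the bottom panel 7 members over all 3 routes are filled, all below 0.

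Entry of glucose came first in the pathway order. Slc2a1, the glucose transporter GLUT1, was at 153, 155 and 175 CPM in wild types and at 226, 297 and 339 CPM in the libraries labelled Tbx3-deficient. All 3 lay above every wild type, a change of 0.83 on the log2 scale (SE 0.136, adjusted p = 0.0423). Of the hexokinases that trap glucose in the cell, Hk2 was at 115, 147 and 123 against 160, 216 and 241 CPM, which did not overlap but did not pass the test (0.68, SE 0.152, adjusted p = 0.0994). Hk1 differed by 0.26 (SE 0.0889, adjusted p = 0.234). Gpi1, which converts glucose-6-phosphate to fructose-6-phosphate where the pentose phosphate route branches off, was at 369, 329 and 316 against 529, 586 and 593 CPM. Its replicates lay close together, and it had the smallest adjusted p of the members (0.75, SE 0.0746, adjusted p = 0.00893).

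Phosphofructokinase, which makes the committed step of glycolysis, has 3 genes. Pfkl, the liver-type subunit, rose from 334, 402 and 380 to 546, 713 and 777 CPM (0.87, SE 0.13, adjusted p = 0.0344). Pfkp, the platelet type, rose from 6.70, 6.37 and 8.60 to 17.9, 22.5 and 31.6 CPM. This was the highest log2 fold change of the 42 members at 1.73 (SE 0.219, adjusted p = 0.0204), in a gene of low level. Pfkm, the muscle type, was at 58.5, 57.3 and 61.1 against 58.3, 60.6 and 64.7 CPM and the groups overlapped (0.05, SE 0.0555, adjusted p = 0.722).

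The aldolase Aldoa, which cleaves fructose-1,6-bisphosphate, rose from 680, 789 and 689 to 1080, 1320 and 1450 CPM (0.83, SE 0.11, adjusted p = 0.0231). Its neuronal relative Aldoc rose from 1.45, 1.3 and 1.69 to 3.22, 5.65 and 4.15 CPM (1.55, SE 0.249, adjusted p = 0.0402). Tpi1, which interconverts the triose phosphates, rose from 570, 602 and 590 to 899, 1230 and 1250 CPM (0.94, SE 0.117, adjusted p = 0.0192). In each of these genes every library labelled Tbx3-deficient was above every wild type, and replicate 1 was the lowest of the 3.

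The next 3 steps follow the trioses to 2-phosphoglycerate. Gapdh, often used as a reference gene, rose from 1490, 1580 and 1460 to 1780, 1980 and 2030 CPM (0.35, SE 0.06, adjusted p = 0.0462). The ATP-making enzyme gene Pgk1 rose from 1030, 1080 and 976 to 1410, 1880 and 1980 CPM (0.77, SE 0.119, adjusted p = 0.0365). Pgam1, phosphoglycerate mutase, rose from 921, 978 and 897 to 1170, 1480 and 1500 CPM (0.57, SE 0.0956, adjusted p = 0.0439). Gapdh thus had the smallest fold of the 13 called members, with no overlap between groups.

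The enolase members are Eno1, of most tissues, and Eno2, of neurons. A further enolase gene, Eno3, is not a member and was at 57.6 and 71.9 CPM (0.32, adjusted p = 0.152). Eno1 was at 1890, 2050 and 1800 against 2480, 2790 and 2400 CPM (0.42, SE 0.0709, adjusted p = 0.046), and this call was lost in each of the 6 fits without 1 library. Eno2, under 2.5 CPM throughout, was at 0.683, 0.433 and 0.691 against 1.22, 1.14 and 2.19 CPM and was not called (1.32, SE 0.362, adjusted p = 0.158). Pkm, pyruvate kinase, was at 2880, 3270 and 2990 against 3730, 4450 and 4760 CPM, with no overlap, and missed the threshold (0.50, SE 0.0892, adjusted p = 0.0514).

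Ldha, which reduces pyruvate to lactate, rose from 1640, 1930 and 1660 to 2340, 2930 and 3190 CPM (0.69, SE 0.115, adjusted p = 0.0431). Ldhb, the subunit that favours lactate oxidation, was at 115, 112 and 115 against 132, 89.3 and 117 CPM, with overlapping groups (-0.02, SE 0.125, adjusted p = 0.961). The lactate exporter gene Slc16a3 (MCT4) rose from 137, 148 and 169 to 281, 403 and 470 CPM (1.35, SE 0.176, adjusted p = 0.022). Slc16a1 (MCT1) was at 129, 135 and 119 against 133, 155 and 160 CPM and was not called (0.22, SE 0.08, adjusted p = 0.257). Ldha and Slc16a3 were thus called and Ldhb and Slc16a1 were not, and the difference within each pair was tested only as the shares given with the isozymes.

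**Figure D2:**
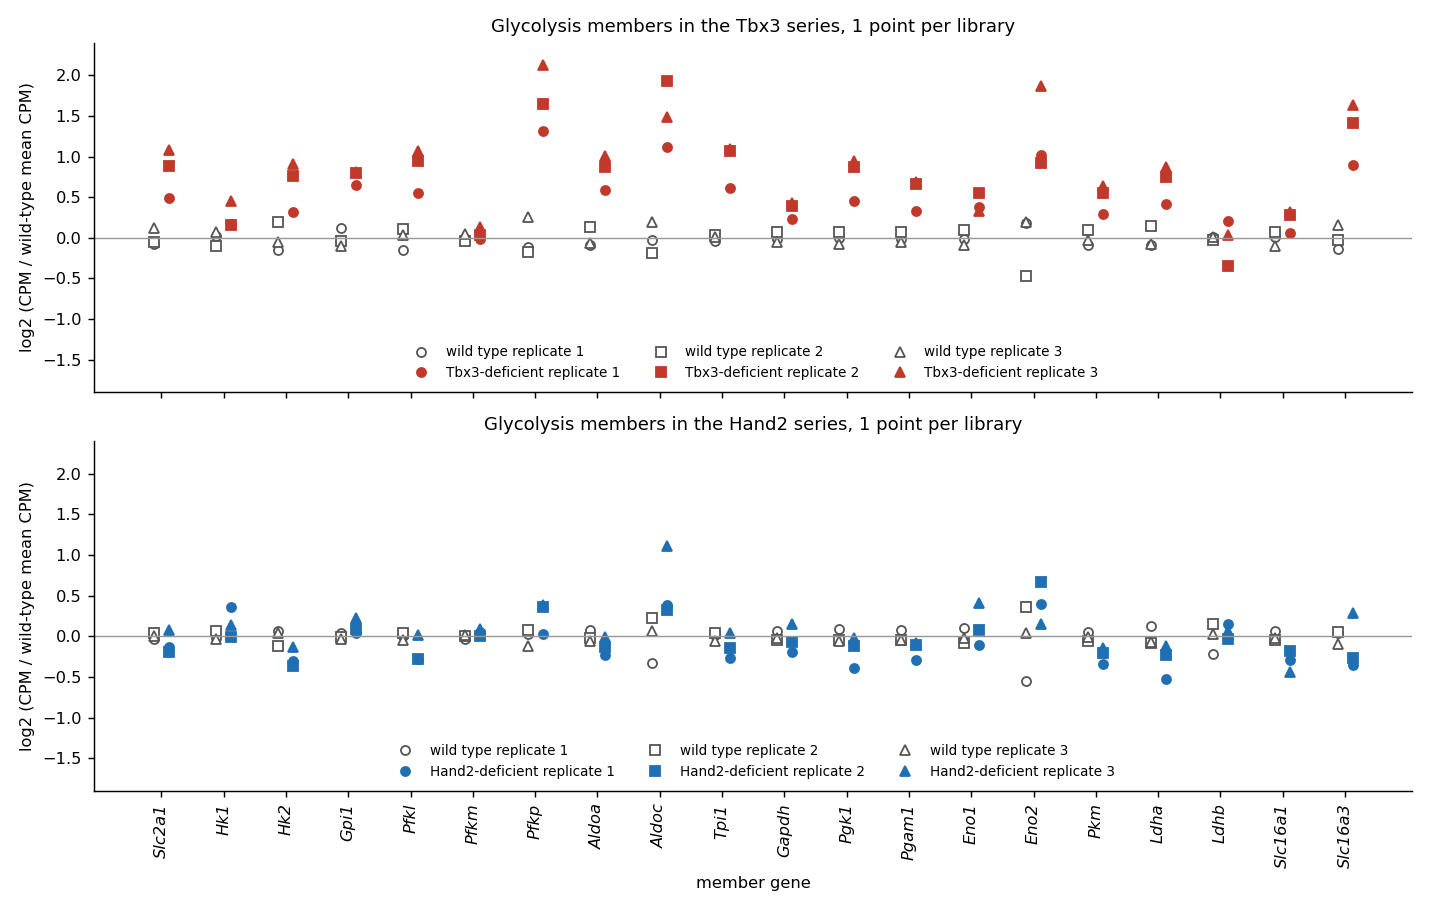
Each library's CPM over the wild-type mean of its series, on a log2 scale (y axis), for the 20 glycolysis members (x axis); open symbols are wild types, filled symbols the Tbx3-deficient (top, by label) and Hand2-deficient (bottom) libraries, and the symbol's shape gives the replicate. In the top panel all filled symbols lie above all open ones for 17 members; in the bottom panel this holds for 2 members.

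The size of the rise differed between embryos. Over all 20 glycolysis members, the median log2 ratio to the wild-type mean was 0.44 in the library labelled Tbx3-deficient replicate 1, 0.77 in replicate 2 and 0.89 in replicate 3. Replicate 1 was the lowest of the 3 for 16 of 20 and replicate 3 the highest for 17 of 20. The 13 called members were picked by a test on these same libraries, so their lying above the wild types was close to fixed in advance. For these 13, replicate 3, a female like the 3 wild types, had log2 ratios of 0.33 to 2.13. With embryo sex as a covariate all 13 estimates stayed above 0 (0.33 to 2.13, median 1.01), but only Pfkp (adjusted p = 0.0148) and Slc16a3 (adjusted p = 0.0471) were called, and the other 11 had adjusted p from 0.0577 to 0.415. That estimate rests on 1 deficient female beside 3 wild-type females.

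Most calls of single members were lost in fits without 1 library. Leaving out wild-type replicate 1, 2 or 3 left 1, 0 or 1 member called higher, and leaving out replicate 1, 2 or 3 of the libraries labelled Tbx3-deficient gave 14, 1 or 3. Gpi1 kept its call in 5 of 6 such fits, Pfkp and Slc16a3 in 2, and the log2 fold changes kept their sign, from 0.31 (Gapdh) to 1.90 (Pfkp). Markers of macrophages were also higher, at a summed 6.09 to 8.06 CPM against 1.78 to 4.49 CPM. None of the 7 was at 0 in all libraries, 3 were tested and 0 were called. Somite markers summed to 72.2 to 87.8 against 60.2 to 62.0 CPM, with 0 of 5 tested called. Hindlimb markers summed to 27.4 to 27.6 against 8.88 to 10.7 CPM, with 2 of 5 called higher (Pitx1 and Hoxc9). Forelimb mesenchyme markers summed to less, 1830 to 2090 against 2170 to 2220 CPM, with 1 of 11 called lower (Tbx5). The part of these 4 marker lists in the result was not tested. The red cell sum (2380 to 4630 against 3320 to 5400 CPM) and the endothelial sum (308 to 350 against 307 to 351 CPM) overlapped between groups.

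The pentose phosphate members had estimates with SE of 0.0426 to 0.0623. In the oxidative branch, which makes NADPH, G6pdx (0.12), Pgls (-0.02) and Pgd (0.10) were not called. In the branch that shuffles sugar phosphates, Tkt (0.12), Taldo1 (-0.03), Rpia (-0.18) and Rpe (-0.01) were not called. Rpia, ribose-5-phosphate isomerase, was at 27.1, 25.4 and 27.5 against 23.1, 23.3 and 24.3 CPM, the 1 member of this route with all libraries labelled Tbx3-deficient below the wild types (adjusted p = 0.228).

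The 15 mitochondrial members had SE of 0.0442 to 0.0809. The pyruvate dehydrogenase subunits Pdha1 (0.06), Pdhb (-0.08) and Dlat (-0.04), citrate synthase Cs (-0.06) and the isocitrate dehydrogenase subunits Idh3a (-0.04), Idh3b (0.09) and Idh3g (0.03) were all near 0. So were Dlst (-0.01), Sucla2 (-0.01), Suclg1 (-0.01), Sdha (0.02), Sdhb (-0.02), Fh1 (0.06) and Mdh2 (0.02), which carry the cycle on from oxoglutarate to oxaloacetate. Ogdh, of the oxoglutarate dehydrogenase complex, had the largest difference, at 169, 158 and 165 against 153, 137 and 147 CPM, with no overlap (-0.17, SE 0.0559, adjusted p = 0.218).

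Genes around the routes were counted from lists chosen with earlier results of these data known. Of all genes tested in this comparison, 0.727% were called higher and 0.284% lower. Of 16 tested other glycolysis genes and regulators 2 were called higher: Pfkfb3, which makes the activator of phosphofructokinase, was at 43.0 and 87.1 CPM, and Slc2a3, a second glucose carrier, at 112 and 177 CPM. Of 7 kinases and phosphatases of pyruvate dehydrogenase 1 was called, Pdk1, which inhibits the complex (70.6 to 202 CPM, 1.52). Of 11 glycogen and gluconeogenesis genes 1 was called, Pgm1 (50.7 to 115 CPM, 1.18). None of 7 other pentose phosphate, 18 other TCA, 8 serine and one-carbon or 22 respiratory chain genes was called. With embryo sex as a covariate 1 of 16 other glycolysis genes, 0 of 7 pyruvate dehydrogenase regulators and 0 of 11 glycogen genes were called. In the 6 fits without 1 library these lists had 0 to 3, 0 to 1 and 0 to 1 called, and 0 in 4, 3 and 5 of those fits. Of 17 tested hypoxia response genes outside the routes, a list that includes Pdk1, 11 were called higher (median 0.79). With embryo sex as a covariate 1 of 17 was called (median 1.00), and in the fits without 1 library 1 to 15 were, the fewest without wild-type replicate 2. None of 16 HIF and MYC pathway regulators was called in the Tbx3 comparison, the HIF gene Hif1a being at 165 and 145 CPM (-0.19, adjusted p = 0.216).

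The Hand2 comparison asks which genes change in the Hand2-deficient buds. The effects on the 3 routes were small: 7 of 42 members were called lower and 0 higher. The median log2 fold changes were -0.08 for glycolysis, -0.08 for pentose phosphate and -0.09 for TCA, beside 0.013 for all genes. They were -0.04, -0.04 and -0.06 without scaling beyond the library size and -0.03, -0.03 and -0.04 with upper-quartile scaling. Of the 17488 genes tested, 5.82% were called lower and 4.68% higher. The 3 deficient libraries were all below the wild types for 14 of 42 members, against 19.5% of all genes. The called differences were of at most 0.30 on the log2 scale, their adjusted p lay between 0.0391 and 0.0499, and 0 of the 7 were called under either of those scalings, where all 7 kept their sign. Those scalings also moved the whole comparison, from 818 genes called higher and 1018 lower to 699 and 337 without scaling and to 1047 and 504 with upper-quartile scaling.

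In glycolysis the called member was Slc16a1, which carries lactate and other monocarboxylates, at 131, 121 and 123 CPM in wild types and 102, 110 and 92.6 CPM in the deficient libraries (-0.30, SE 0.0658, adjusted p = 0.0391). Pkm (2920, 2700 and 2800 against 2220, 2430 and 2550 CPM) and Hk2 (121, 107 and 119 against 93.9, 89.9 and 106 CPM) did not overlap but missed the threshold, at adjusted p = 0.0516 and 0.0628. Ldha was at 1510, 1300 and 1320 against 956, 1180 and 1270 CPM (-0.28, SE 0.11, adjusted p = 0.137). Of the deficient libraries, Hand2-deficient replicate 3 was the highest of the 3 for 16 of 20 glycolysis members.

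In the pentose phosphate route Pgd, which makes NADPH in the oxidative branch, fell from 184, 176 and 184 to 165, 164 and 155 CPM (-0.17, SE 0.0425, adjusted p = 0.0499). Rpia fell from 28.1, 25.0 and 29.0 to 22.8, 23.0 and 21.5 CPM (-0.29, SE 0.0712, adjusted p = 0.0483). Rpe, ribulose-5-phosphate epimerase, was at 47.2, 41.8 and 44.1 against 35.3, 40.5 and 38.2 CPM (adjusted p = 0.0742). In all 3 genes the groups did not overlap.

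In the TCA cycle 4 of 15 were called lower. Idh3a, the catalytic subunit of isocitrate dehydrogenase, fell from 90.5, 83.4 and 93.7 to 71.5, 80.3 and 75.7 CPM (-0.23, SE 0.058, adjusted p = 0.0485). Dlst, of the oxoglutarate dehydrogenase complex, fell from 188, 169 and 181 to 151, 158 and 157 CPM (-0.21, SE 0.0496, adjusted p = 0.0456). The other 2 act in succession.

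Sdhb, the iron-sulphur subunit of succinate dehydrogenase, fell from 111, 107 and 114 to 99.8, 101 and 99.6 CPM (-0.14, SE 0.0342, adjusted p = 0.046). Fh1, fumarase, fell from 129, 120 and 130 to 111, 114 and 113 CPM (-0.16, SE 0.0396, adjusted p = 0.0458). In all 4 genes the wild-type replicate 2 was the lowest wild type, as it was for 14 of 15 TCA members. Idh3b (0.01) and Idh3g (-0.01), the regulatory partners of Idh3a, were not called and the groups overlapped. Leaving out wild-type replicate 1, 2 or 3 gave 0, 7 or 0 members called lower, and leaving out deficient replicate 1, 2 or 3 gave 0, 1 or 0. With embryo sex as a covariate it was 0.

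**Figure D3:**
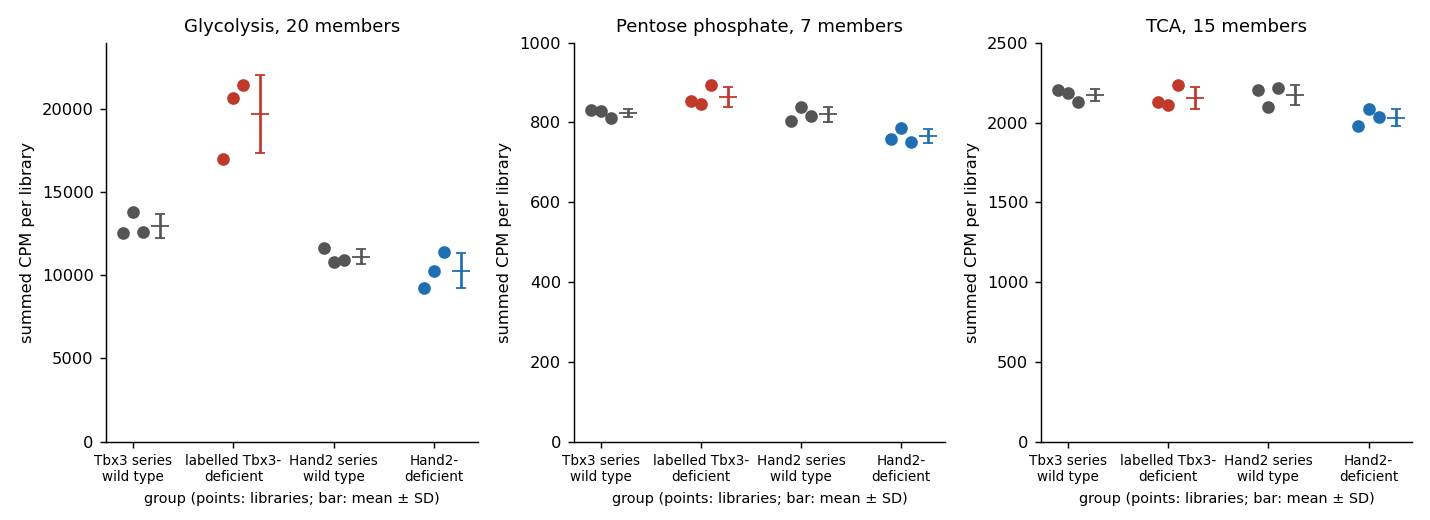
Summed CPM of the members of each route (y axis, from 0) in each of the 12 libraries, by group (x axis); points are libraries and bars the mean ± SD of 3. Genes that share sequence with members, such as Eno1b, Gm4735 and Gm13394, are left out, and the division of shared reads was not checked. The glycolysis sum of the libraries labelled Tbx3-deficient, 17021 to 21424 CPM, lies above all other libraries, none of which exceeds 13820 CPM. Their pentose phosphate sum (846 to 893 CPM) is above the other 9 libraries by a small margin (at most 840 CPM), and the Hand2-deficient libraries have the lowest pentose phosphate (752 to 786 CPM) and TCA sums (1978 to 2082 CPM).

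Around the routes, 1 of 18 tested other glycolysis genes (Galm, 9.12 to 11.6 CPM), 1 of 7 pyruvate dehydrogenase regulators (Pdk2, 5.83 to 8.76 CPM) and 1 of 11 glycogen genes (Pgm2l1, 32.7 to 43.7 CPM) were called higher. Of 18 other TCA genes Idh1 and Pck2 were called higher, and of 7 other pentose phosphate genes Prps1, which turns ribose-5-phosphate into the nucleotide precursor PRPP, fell from 95.1 to 71.3 CPM. Of the 22 respiratory chain genes 1 fell, Cyc1 (154 to 135 CPM). Of 18 hypoxia response genes 1 was called, Adm, which rose from 0.511 to 1.04 CPM. Such counts are near the shares over all genes tested, 4.68% higher and 5.82% lower. With embryo sex as a covariate or a replicate block 0 genes of these 7 lists were called but for 1 glycogen gene, and 0 respiratory chain genes were called lower under either other scaling. Macrophage markers were at a summed 7.62 to 14.7 against 4.0 to 6.17 CPM, with 2 of 7 called higher, and 5 of 11 forelimb mesenchyme markers were called higher and 1 lower. Endothelial markers summed to 335 to 362 against 315 to 320 CPM (1 of 9 called higher), muscle progenitor markers to 134 to 138 against 104 to 120 CPM (0 of 5 called) and hindlimb markers to 13.9 to 15.1 against 8.59 to 8.94 CPM (3 of 5 called higher). Epithelial markers summed to 265 to 302 against 303 to 346 CPM, with 1 of 10 called lower, the ridge signal Fgf8. The part of these lists in the values above was not tested.

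The difference between the 2 effects was tested in a fit of all 12 libraries. It was called for 13 of 20 glycolysis members, in each of which the Hand2 effect was lower than the Tbx3 effect, and for 0 of 7 pentose phosphate and 0 of 15 TCA members. Of the 17360 genes tested 0.893% were called in that direction, and the median over the 20 members was -0.90 against -0.007 over all genes. Of these 13 members 10 were also called in the Tbx3 comparison, and 0 members were called in both the Tbx3 and the Hand2 comparison. The difference was -1.46 for Pfkp (SE 0.27, adjusted p = 0.0244), -1.05 for Tpi1 (SE 0.16, adjusted p = 0.00994) and -0.95 for Aldoa (SE 0.146, adjusted p = 0.0104). Hk2 (-0.94, adjusted p = 0.0371), Pkm (-0.72, adjusted p = 0.0153) and Slc16a1 (-0.52, adjusted p = 0.0472), not called in the Tbx3 comparison, passed this test. Gpi1, Pfkl, Aldoa, Tpi1 and Pkm kept the call in all 12 fits without 1 library, and with embryo sex as a covariate 12 members were called.

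Levels per length compare the members of a step with each other. The length was that of all annotated exons of a gene joined over its transcripts, such as 4133 bases for Gapdh and 2244 for Pgk1. It can exceed the transcript present in the buds, so the order of genes depends on the annotation. In CPM per kilobase, the wild types of the Tbx3 series had 609 for Pkm, 527 for Ldha, 470 for Pgam1 and 459 for Pgk1. These were the highest glycolysis members, and Pfkp (0.539), Aldoc (0.454) and Eno2 (0.128) were the lowest. In the mitochondrial route the highest level was that of Mdh2 at 69.6, and in the pentose phosphate route that of Taldo1 at 51.9.

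The share of 1 isozyme among the members of its step was then computed per library from counts per kilobase of that joined exon length. A share thus depends on these lengths, which were 13401 bases for Pfkp, 6675 for Pfkl and 3340 for Pfkm. Other genes of a step, such as Eno3, and copies of members were left out. In the libraries labelled Tbx3-deficient, Slc16a3 took 63.7%, 68.4% and 71.1% of the monocarboxylate carrier RNA, against 47.0%, 47.6% and 54.1% in wild types. Pfkl took 83.3% ± 1.74 (SD, n = 3) of phosphofructokinase against 75.3% ± 1.93, and Pfkm 15.2% ± 1.85 against 24.0% ± 1.86. Ldha took 92.1% ± 2.41 of lactate dehydrogenase against 87.8% ± 1.10. Pfkp stayed a minor isozyme at 1.46% against 0.731%, Aldoc at 0.300% against 0.185% of aldolase and Eno2 at 0.0689% against 0.0365% of Eno1 and Eno2 together. These 7 shares did not overlap between groups, and the exact 2-sided permutation test gave p = 0.1 for each, the smallest that 3 against 3 allows (adjusted 0.114 over 8 shares). Hk2 took 84.3% against 80.2% of hexokinase, with overlap (exact permutation p = 0.2).

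In the Hand2 series Hk2 took 67.8%, 72.1% and 73.4% in the deficient libraries against 78.0%, 74.6% and 77.9% in wild types, without overlap. Pfkl took 69.0% ± 1.92 against 72.4% ± 0.786, also without overlap. The same held for Pfkm (30.1% against 26.9%), Pfkp (0.905% against 0.698%) and Aldoc (0.337% against 0.201%), and the exact permutation test gave p = 0.1 for each of these 5 (adjusted 0.16 over 8 shares). Ldha took 77.4% against 81.4% with overlap (exact permutation p = 0.3). Slc16a3 took 43.3%, 43.2% and 56.9% against 43.9%, 46.4% and 43.2%, so that replicate 3 alone stood above the rest, and without it the mean difference of 3.30 points became -1.24 points.

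**Figure D4:**
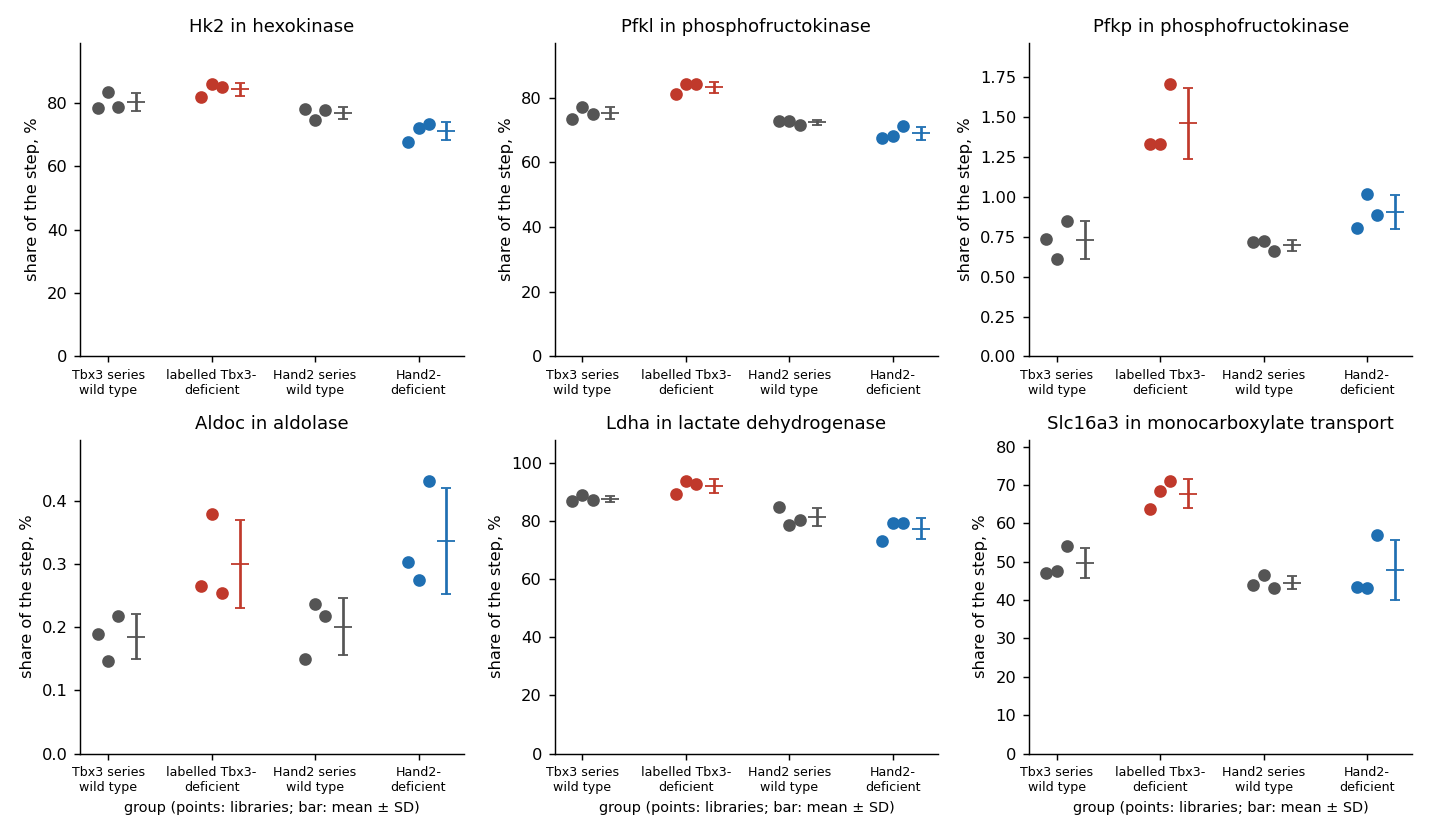
Share of 6 isozymes in the summed counts per kilobase of the members of their step (y axis, percent, from 0) in each of the 12 libraries, by group (x axis); points are libraries and bars the mean ± SD of 3. The mean share of Slc16a3 is 67.7% in the libraries labelled Tbx3-deficient and 49.6% in their wild types, that of Pfkl 83.3% and 75.3%; that of Hk2 is 71.1% in the Hand2-deficient libraries and 76.8% in theirs.

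Some members share sequence with expressed copies. The values are RSEM expected counts, in which shared reads are divided in fractions, and that division was not checked for these genes. Eno1 shares at least 20% of its 31-base words with Eno1b and the processed pseudogene Gm4735, Gapdh with Gm13394 and 12 others, Ldhb with Gm5514, and Pgam1 and Pgk1 with copies of few counts. In the Hand2 wild types Eno1b was at 478, 445 and 449 CPM and in the deficient libraries at 171, 203 and 5.61 CPM. Gm4735 was at 524, 452 and 494 against 212, 224 and 7.65 CPM. Replicate 3 had almost none of either copy, and there Eno1 itself was highest, at 1790 CPM beside 1250 and 1430 CPM.

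Eno1 alone overlapped between the groups (0.14, SE 0.125, adjusted p = 0.472). Summed with its copies it was at 2450, 2170 and 2270 CPM in wild types and 1630, 1860 and 1800 CPM in the Hand2-deficient libraries, without overlap, and the sum fell by 0.38 on the log2 scale (SE 0.0641, adjusted p = 0.0207). In the Tbx3 series the sum was at 2430, 2690 and 2360 against 3210, 3610 and 4090 CPM, a change of 0.54 on the log2 scale (SE 0.0887, adjusted p = 0.0407). There replicate 3 of the libraries labelled Tbx3-deficient had the most Eno1b, 796 CPM beside 324 and 365 CPM. Values of Eno1, Gapdh and Ldhb alone are uncertain for this reason. Gapdh with its copies kept its fold in the Tbx3 series, 1.27 beside 1.28. In the Hand2 series Gapdh alone overlapped between the groups (fold 0.98). With its copies it was at 1930, 1810 and 1850 CPM in wild types and 1660, 1780 and 1760 CPM in deficient libraries. That sum did not overlap (fold 0.929) and was not called. The copy Gm13394 was at 204 CPM in deficient replicate 3 beside 431 and 435 CPM, and Gapdh itself was highest there.

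**Figure D5:**
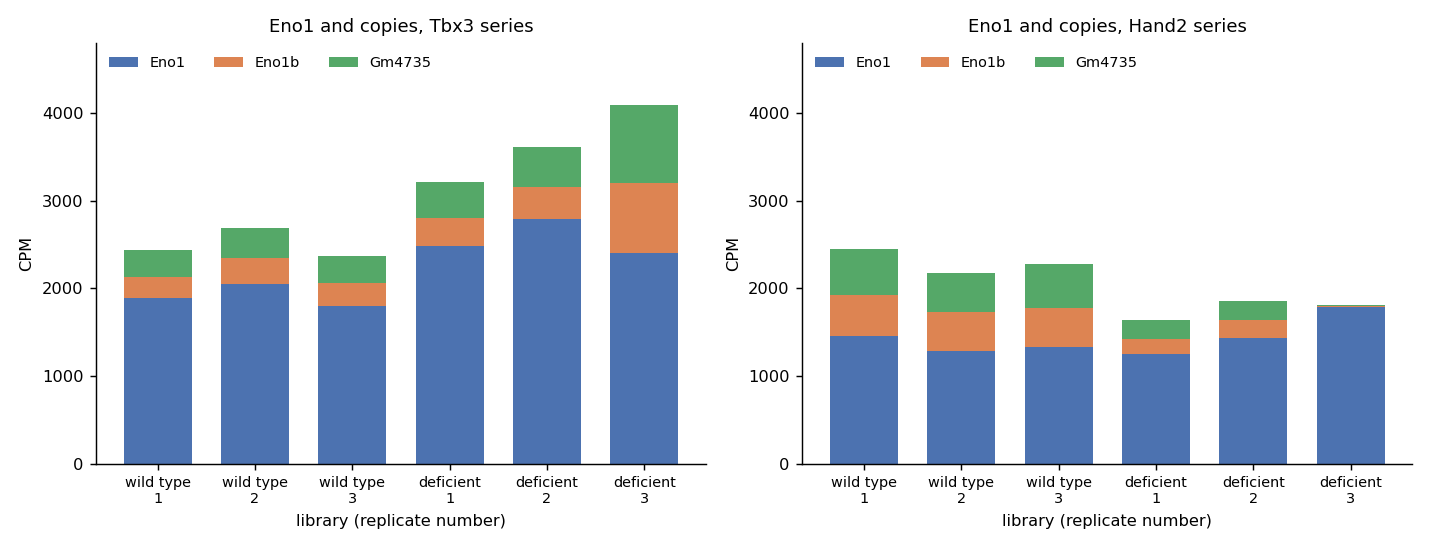
Stacked CPM (y axis, from 0) of Eno1 and its copies Eno1b and Gm4735 in the 6 libraries of each series (x axis). In Hand2-deficient replicate 3 the copies are at 5.61 and 7.65 CPM while the whole bar is close to those of the other deficient libraries.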

How the data were processed

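RNA of 12 libraries was counted per gene. The deposited values are RSEM expected counts, not normalized. Per the submitters' processing notes the tools were FastQC 0.11.4, STAR 2.5.2 and RSEM 1.3.0 with mm10; the strand setting is not given in the sources used here. Per the labels' protocols, libraries were made with a SMARTer kit from RNA of integrity number 8.0 or more and read as 85 bp single ends.

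Expected counts (12.5% to 16.2% of values not whole) were rounded. Symbols came from GENCODE M21. Each deficient group was compared with its own wild types in edgeR 4.0.16 (R 4.3.3): quasi-likelihood test, TMM, genes kept by filterByExpr at a count of 10 and a total of 15, p adjusted after Benjamini and Hochberg across every tested gene, threshold 0.05. The difference of effects came from a fit of all 12 libraries. SE is the log2 fold change over the square root of F; prior count 0.125. DESeq2 1.42.0, limma 3.58.1 (voom) and other settings were alternatives. The code was tested on simulated data.

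All 42 members are named; those called get each library's value, and of other lists up to 4 called genes. The members and lists were chosen with earlier results of these data known. The 250-base promoter window was chosen after the 300-base counts were seen, to leave out the bases past the RefSeq start. Bases transcribed from other starts of a gene can remain in it. P-values measure only the spread between these embryos, and counts without molecular identifiers are not independent molecules.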

Additional observations from a re-analysis of the deposited data

Results flagged for a closer look

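For 13 glycolysis members the effect differed between the 2 series, by edgeR's quasi-likelihood test of the difference itself (Hand2 effect minus Tbx3 effect, log2, adjusted p from 0.00994 to 0.0472). At the entry and the committed step the values were -0.90 for Slc2a1, -0.94 for Hk2, -0.63 for Gpi1, -1.04 for Pfkl and -1.46 for Pfkp. In the middle and lower steps they were -0.95 for Aldoa, -1.05 for Tpi1, -0.94 for Pgk1, -0.73 for Pgam1 and -0.72 for Pkm. For lactate production and transport they were -0.97 for Ldha, -0.52 for Slc16a1 and -1.43 for Slc16a3. Stage, alleles and depth differ together between the series and cannot be told apart. With the Hand2 counts thinned to the depth of the Tbx3 series, 13 members were called lower.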

How the results depend on the processing

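In the Tbx3 comparison the main fit called 153 genes and 13 members. DESeq2 called 551 genes, a fit with no low-count filter 504, all 12 libraries in 1 fit 422, limma-voom 99 genes and 7 members, and embryo sex as a covariate 22 genes and 2 members. In the Hand2 comparison the main fit called 1836 genes and 7 members. DESeq2 called 3451 genes and 12 members, no scaling 1036 genes and 0 members, upper-quartile scaling 0 members, no filter 3 members, sex as a covariate 526 genes and 0 members, thinned counts 1189 genes and 1 member, and a library size without rRNA genes 4 members. For the difference, 292 genes were called, and 859 with DESeq2. Eno1 reversed in the Hand2 comparison when summed with its copies, from 0.14 to -0.38, as the report shows. The cause of the other changes was not tested.

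Replicate numbers are shared between groups, but the deviations of same-numbered libraries correlated at 0.074, 0.013 and -0.008 in the Tbx3 series and at -0.128, 0.031 and 0.027 in the Hand2 series, so the numbers were not taken to pair the samples. With the replicate number as a block, 87 genes and 10 members were called in the Tbx3 comparison, 161 genes and 0 members in the Hand2 comparison, and 69 genes and 7 members for the difference.

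Without 1 library at a time, the genes called ranged from 23 to 220 (Tbx3), 218 to 2223 (Hand2) and 123 to 336 (difference), and the members called from 0 to 14 higher, 0 to 7 lower and 5 to 13 lower. The Slc16a3 share in the Hand2 series differed by -1.24 to 5.57 points. Such fits also have fewer libraries to measure the spread. Low counts limit Eno2 and Aldoc.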

Other observations

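The serine and one-carbon branch draws on 3-phosphoglycerate from glycolysis. In the Hand2-deficient buds 4 of its 8 genes were called lower by edgeR's quasi-likelihood test and 0 higher, beside 5.82% lower and 4.68% higher of all genes tested. The median log2 fold change was -0.29 beside 0.013 for all genes. Phgdh, the first enzyme of the branch, was at 221, 211 and 229 CPM in wild types and 190, 191 and 164 CPM in the deficient libraries (-0.28, adjusted p = 0.0494). Psat1, the next enzyme, fell from 188 to 146 CPM (-0.36, adjusted p = 0.0391). The folate enzyme genes Mthfd1 (145 to 117 CPM) and Mthfd2 (95.3 to 71.2 CPM) fell as well. All 8 log2 fold changes were below 0. Without scaling beyond the library size 0 were called and 7 lay below 0 (median -0.26), and with upper-quartile scaling 2 were called (median -0.24). None was called with embryo sex as a covariate or with a replicate block, 7 were called by DESeq2, and 0 to 6 in fits without 1 library. In the Tbx3 comparison 0 of the same 8 were called, with a median of -0.05, and Phgdh was at 185 and 174 CPM.

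Among regulators, Hif1a fell in the Hand2-deficient buds from 178 to 157 CPM (-0.18, adjusted p = 0.0453), its relative Epas1 rose from 12.5 to 18.6 CPM (0.58, adjusted p = 0.0167) and Nrf1, a regulator of mitochondrial genes, fell from 78.6 to 70.6 CPM (-0.16, adjusted p = 0.0283). Without scaling beyond the library size and with upper-quartile scaling, 0 of 16 regulators were called lower. With a replicate block 0 were called in either direction, with embryo sex as a covariate 1 higher and 0 lower, and in fits without 1 library 0 to 2 higher and 0 to 4 lower. Of 18 hypoxia response genes 1 was called.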
